A study of Homo sapiens with 36 samples.

Results

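JunD binding was mapped by chromatin immunoprecipitation and sequencing (ChIP-seq) in 2 human lung epithelial lines, A549 and B2B, and the regions described here are all JunD peaks called in either line on chromosomes 1 to 22, X and Y. Peaks whose summit lay in a bin of 1 Mb with no annotated transcript start were left out, which kept 8871 of 9639 peaks in A549 and 6745 of 8597 peaks in B2B. Together these are 15616 JunD peaks of the 475211 peaks in 16 lists. Lists of H3K4me3, H3K27ac, Med1, RNA polymerase II and the 3 Jun proteins were used for each line, and those of CTCF and Rad21 for B2B. CTCF and Rad21 of A549 were not analysed here. A549 is an established line from a lung adenocarcinoma, and B2B (BEAS-2B) is an immortalised line from bronchial epithelium that is not cancerous. The labels name no treatment, dose or time for either line. Each JunD list came from the reads of 2 replicates that had been merged before peaks were called, so each line has 1 list and the spread between replicates is not known. No p-value is therefore given. Differences of shares carry 95% intervals that cover counting error only, and because each model is 1 line per condition, cancer and line cannot be told apart.

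JunD is a basic leucine zipper protein of the Jun family. It pairs with Fos proteins to form the factor AP-1, which binds the TPA response element, and with ATF and CREB proteins on the cyclic AMP response element (CRE). Jun and JunB are its closest relatives, the kinases JNK and ERK phosphorylate Jun proteins, and in epithelial cells AP-1 sits mostly at enhancers of genes for growth, wound response and the cytoskeleton.

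The label of both lines as epithelial was checked by promoters marked with H3K4me3, a histone mark of active promoters. It lay within 1 kb of a start of 5 of 6 epithelial marker genes in both lines (EPCAM, KRT7, KRT8, KRT18 and CDH1). Of 3 endothelial markers 0 were marked in either line, of 5 blood and immune markers 0 were marked in A549 and only CD14 in B2B, and of 4 fibroblast markers only COL1A1 was marked, in both lines. Basal airway markers were marked at 1 of 4 genes in each line (TP63 in A549 and KRT17 in B2B). Of 4 alveolar type II markers, SFTPC and NKX2-1 were marked in A549 and NKX2-1 in B2B. Longer lists separated the cell types less sharply. H3K4me3 marked 18 of 24 epithelial genes in A549 and 11 in B2B, 16 of 22 mesenchymal genes in each line, 2 and 4 of 9 fibroblast genes, 2 and 1 of 8 endothelial genes and 0 and 1 of 10 blood and immune genes.

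Regions within 1 kb of the start of a protein-coding gene are called promoter here, and those farther from every start distal. The sequences shown are examples from the strongest regions of each class and kind, at the JunD summit with 50 bases to each side. They are read from the plus strand of the hg38 reference, 5′ to 3′, with matches of the AP-1 element TGACTCA or its complement on the other strand in capitals. No match of the CRE, TGACGTCA, occurred in these 10 windows. The A549-only promoter region is at RUNDC3B (chr7:87626587-87626687), and the A549-only distal region is nearest TCF7L2 (chr10:113093617-113093717). The RUNDC3B region lacked H3K4me3 of A549, which overlapped 90.1% of A549-only regions near a start, so it does not stand for its class.
RUNDC3B: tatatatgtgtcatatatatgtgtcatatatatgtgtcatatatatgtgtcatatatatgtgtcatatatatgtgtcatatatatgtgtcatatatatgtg
TCF7L2: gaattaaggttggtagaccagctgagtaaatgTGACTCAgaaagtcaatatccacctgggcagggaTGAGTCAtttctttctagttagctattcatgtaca

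Regions called in both lines are shown at the promoters of RAPGEF4 (chr2:173048941-173049041) and NRP1 (chr10:33264375-33264475) and, as distal regions, nearest DBNDD1 (chr16:89995791-89995891) and HPS1 (chr10:98460959-98461059). The window at DBNDD1 holds 3 AP-1 elements in a short repeat, each followed by GC, which is the antioxidant type of the element (TGACTCAGC).
RAPGEF4: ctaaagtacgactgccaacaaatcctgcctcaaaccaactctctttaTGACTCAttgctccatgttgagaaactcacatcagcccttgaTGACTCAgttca
NRP1: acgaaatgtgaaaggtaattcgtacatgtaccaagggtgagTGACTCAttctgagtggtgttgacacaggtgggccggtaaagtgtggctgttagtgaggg
DBNDD1: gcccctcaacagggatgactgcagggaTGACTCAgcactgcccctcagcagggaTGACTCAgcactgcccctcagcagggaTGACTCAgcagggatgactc
HPS1: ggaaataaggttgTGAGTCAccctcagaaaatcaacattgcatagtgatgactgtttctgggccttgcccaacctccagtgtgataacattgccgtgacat

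Regions called only in B2B are shown at a start of SYTL2 (chr11:85726041-85726141) and of TBC1D1 (chr4:38119838-38119938) and, as distal regions, nearest SLC8A1 (chr2:40434996-40435096) and EBF1 (chr5:158382624-158382724).
SYTL2: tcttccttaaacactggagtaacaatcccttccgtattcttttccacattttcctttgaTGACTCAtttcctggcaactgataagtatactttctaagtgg
TBC1D1: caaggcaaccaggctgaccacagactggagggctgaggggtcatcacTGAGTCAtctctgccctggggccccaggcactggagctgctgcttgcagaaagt
SLC8A1: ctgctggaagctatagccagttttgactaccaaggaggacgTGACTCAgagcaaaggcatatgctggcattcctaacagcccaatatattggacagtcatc
EBF1: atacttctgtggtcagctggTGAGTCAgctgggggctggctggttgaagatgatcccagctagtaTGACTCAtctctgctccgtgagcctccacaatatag

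Most JunD regions were called in a single line. After merging peaks that overlapped by at least 1 bp there were 13684 regions, of which 6958 (50.8%, 95% Wilson interval 50.01 to 51.7) were called in A549 only, 1873 (13.7%, 13.1 to 14.3) in both lines and 4853 (35.5%, 34.7 to 36.3) in B2B only. Shared regions took 21.6% (20.7 to 22.4) of the A549 peaks and 28.1% (27 to 29.1) of the B2B peaks. The called peaks, taken past the threshold of each list, had like median strengths in the 2 lists. The median fold enrichment over local background at the summit was 5.72 in A549 and 5.87 in B2B, and the median number of reads over a summit, worked out from the fold enrichment and its p-value, was 21 and 22. Peaks were narrow, with a median width of 187 bp in A549 and 167 bp in B2B, and covered 2008 kb and 1358 kb. The weakest peaks of both lists had a −log10 q of 2.01. A call in a single line hence means that the other line had no peak past the threshold of its own list, not that JunD was absent there.

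Stronger regions were more often shared. Median fold enrichment in A549 was 5.55 in A549-only and 6.93 in shared regions, and in B2B it was 5.61 in B2B-only and 6.49 in shared regions. Of the strongest 10% of peaks, 48.9% were shared in A549 and 55.2% in B2B, against 13.6% and 22.5% of the peaks below the median fold enrichment. In shared regions the summits of the lines lay a median of 20 bp apart, with 83.7% within 50 bp. Fold enrichment of the lines had a Spearman correlation of 0.397 over these regions, which share the same sequence in both lines and are not independent replicates. The relation to strength was not monotonic at the weak end. In 5 groups of equal size from weakest to strongest, 17.0%, 10.6%, 17.0%, 22.8% and 40.5% of A549 peaks overlapped a B2B JunD peak, and in B2B 29.4%, 16.5%, 20.6%, 27.9% and 45.9% overlapped an A549 JunD peak.

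**Figure D1:**
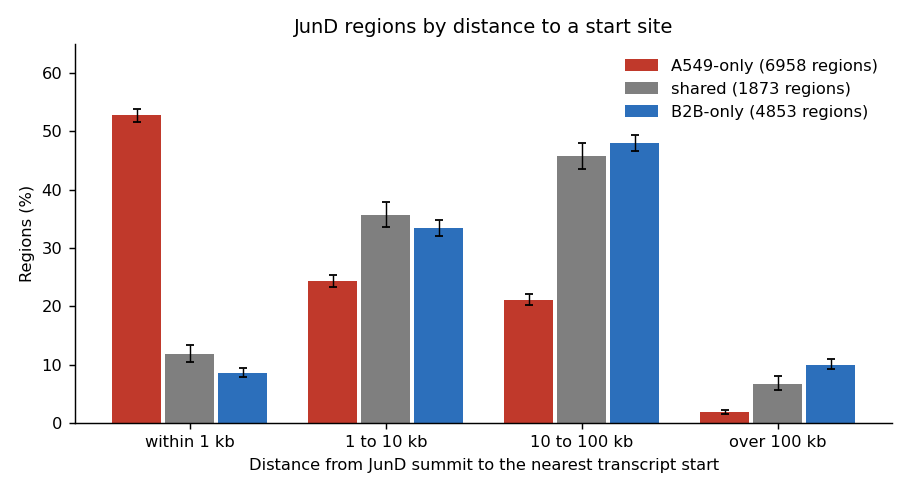
Share of JunD regions (%, vertical axis) by distance of the summit from the nearest annotated transcript start, for A549-only, shared and B2B-only regions; bars are shares and error bars 95% Wilson intervals. Within 1 kb lay 52.7% of A549-only regions, against 11.8% of shared and 8.61% of B2B-only regions.

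A549-only regions lay near gene starts far more often than the other classes. The summit was within 1 kb of a transcript start in 52.7% (51.6 to 53.9) of A549-only regions, 11.8% (10.4 to 13.3) of shared regions and 8.61% (7.86 to 9.44) of B2B-only regions. A549-only exceeded B2B-only by 44.1 percentage points (95% Newcombe interval 42.7 to 45.5). For starts of protein-coding genes alone the shares were 45.3%, 6.67% and 4.68%. Regions 10 to 100 kb from a start made up 21.1% of A549-only, 45.8% of shared and 48.0% of B2B-only regions, and those beyond 100 kb 1.88%, 6.73% and 9.99%. Summits fell in introns in 42.5%, 57.2% and 56.9% of the 3 classes and between genes in 33.4%, 36.7% and 37.9%. The plot of regions by distance shows shared and B2B-only regions with nearly the same profile and A549-only regions apart from both.

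Base composition followed the same division. The median GC content within 250 bp of the summit was 57.0% in A549-only, 42.9% in shared and 40.9% in B2B-only regions, and the median ratio of observed to expected CpG dinucleotides was 0.579, 0.221 and 0.199. The 3670 A549-only regions near a start had a median GC content of 66.7% and a CpG ratio of 0.84. The 221 shared and 418 B2B-only regions near a start were much poorer in GC, with 47.5% and 43.3%. Away from starts the 3288 A549-only regions had 44.3% GC. A549-only regions near a start were also weaker than those away from one, with median fold enrichments of 5.19 and 5.97. The local background behind the A549 peaks was a median of 1.63 times the lowest of the list near starts and 1.51 times away from them, and in B2B 1.48 and 1.24 times. With peaks of a background above 3 times the lowest left out, a choice made after the data were seen, 52.3% of A549-only regions lay near a start. The part of GC content in the contrast was not tested.

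**Figure D2:**
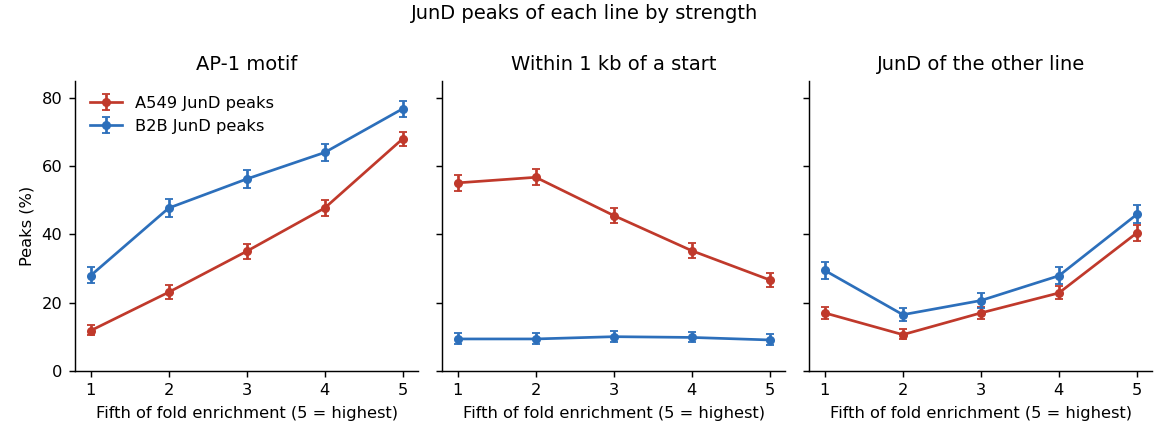
Share of JunD peaks (%, vertical axis) that held an AP-1 motif, lay within 1 kb of a start or overlapped a JunD peak of the other line, in 5 groups of equal size by fold enrichment from weakest to strongest (horizontal axis), in A549 and B2B; error bars are 95% Wilson intervals. The AP-1 share climbs from 11.8% to 68.1% in A549 and from 27.9% to 76.9% in B2B, while the share near starts drops only in A549.

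AP-1 elements were most frequent in shared regions. TGACTCA lay within 50 bp of the summit in 66.9% (64.7 to 69.0) of shared, 49.6% (48.2 to 51.0) of B2B-only and 29.3% (28.3 to 30.4) of A549-only regions, against 1.47% to 1.82% of windows of the same length 2 kb away and 1.27% of windows at the starts of all 20033 protein-coding genes. The difference of A549-only minus B2B-only was −20.3 points (−22.1 to −18.5), or −10.2 points with the bins without a start kept. Most of it lay near starts. There 14.3% of A549-only, 75.1% of shared and 53.6% of B2B-only regions held the motif, a difference of −39.3 points (−44.2 to −34.4), whereas away from starts the shares were 46.1%, 65.8% and 49.3% and the difference was −3.13 points (−5.38 to −0.877). Where present, the motif sat close to the summit, at a median distance of 15, 14 and 15 bp in A549-only, shared and B2B-only regions. Over the bases that flank the element closest to the summit, with both sides read 5′ outward, A made up 36.0% of the flanks in A549-only, 45.9% in shared and 47.6% in B2B-only regions, and T 4.68%, 2.91% and 3.88%. In both lines the AP-1 share climbed with peak strength, from 11.8% in the weakest to 68.1% in the strongest of the 5 groups of A549 peaks and from 27.9% to 76.9% in B2B. Along the same groups the share near starts went from 55.1% to 26.6% in A549 but stayed between 9.04% and 10.0% in B2B.

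The CRE was most frequent in A549-only regions. It lay within 50 bp of the summit in 2.89% (2.52 to 3.31) of A549-only regions (201 regions), 0.641% of shared (12) and 0.288% of B2B-only regions (14), and A549-only exceeded B2B-only by 2.60 points (2.18 to 3.04). Of the A549-only regions near a start, 167 held a CRE, or 4.55% against 1.21% of all protein-coding gene starts. Near starts it was in 1.81% of shared and 0.478% of B2B-only regions. Away from starts the shares were 1.03% of A549-only, 0.484% of shared and 0.271% of B2B-only regions. A549-only minus B2B-only was 4.07 points (2.67 to 4.87) near starts and 0.763 points (0.408 to 1.19) away. A549-only minus shared was 2.74 points (−0.0809 to 4.06) and 0.55 points (−0.00278 to 1.02), and both intervals include 0. In windows 2 kb away the CRE was found at 0.115%, 0% and 0.0515%.

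Other elements divided the classes by promoter and distal character. The GC box GGGGCGGGG, which SP and KLF factors bind, was present in 6.73% of A549-only, 0.374% of shared and 0.0824% of B2B-only regions. At A549-only regions near a start it reached 11.4%, beside 9.16% of all protein-coding starts. The ETS element CCGGAAG was also most frequent in A549-only regions, with 3.91% against 0.374% of shared and 0.515% of B2B-only regions, and at A549-only regions near a start its 6.59% was below the 7.33% of all starts. The promoter elements NRF1 (GCATGCGC) and YY1 (AAGATGGCG) stayed at 0.546% and 0.474% or below in every class, and the E-box CACGTG, bound by MYC and USF factors, was at 2.56%, 1.66% and 1.09%. At A549-only regions near a start it was at 3.71%, beside 3.45% of all starts.

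Elements of factors that work with AP-1 at enhancers differed between the lines. The TEAD element ACATTCC, read by the TEAD factors of the Hippo pathway, was in 1.80% of A549-only, 5.55% of shared and 8.28% of B2B-only regions, a difference of −6.49 points (−7.35 to −5.67), with 1.57%, 1.87% and 2.59% in windows 2 kb away. The RUNX element TGTGGTT gave 1.12%, 2.72% and 4.88%, a difference of −3.76 points (−4.44 to −3.13), with 1.41% to 1.62% 2 kb away. The forkhead element TGTTTAC ran the other way, with 3.91% and 4.22% of A549-only and shared but 1.40% of B2B-only regions, a difference of 2.51 points (1.94 to 3.07). In A549-only regions away from starts it reached 6.54%, and 2 kb from the B2B-only regions it was at 1.51%, about its share at the summits. The antioxidant type of AP-1 element, a subset of the AP-1 matches, was at 2.83%, 6.35% and 3.44% and at 0.175% of all starts. The CCAAT box (searched as CCAATCA), and the C/EBP and grainyhead-like elements, were at 1.15% or below in each class. These matches describe letters near the summit and do not show which factor was bound.

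**Figure D3:**
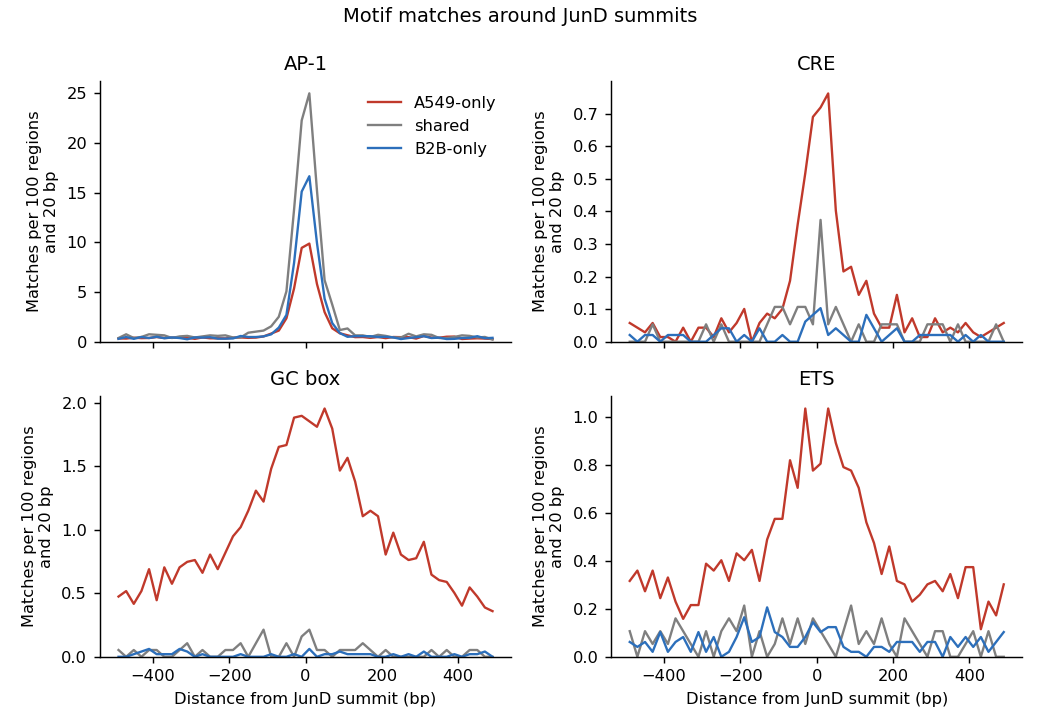
Motif matches per 100 regions in bins of 20 bp (vertical axis) against distance from the JunD summit in bp (horizontal axis, within 500 bp) for A549-only, shared and B2B-only regions. The AP-1 element peaks at the summit in every class, whereas the CRE, ETS and GC box elements are raised around A549-only summits and near 0 in the other classes.

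A549-only regions also carried promoter marks of A549. H3K4me3 of A549 overlapped 61.3% of A549-only, 26.7% of shared and 5.23% of B2B-only regions. In B2B, H3K4me3 overlapped 27.1%, 9.02% and 5.38% of the same regions. Each class against the mark of its own line, A549-only exceeded B2B-only by 55.9 points (54.6 to 57.2). Near starts 90.1% of A549-only regions overlapped H3K4me3 in A549 and 47.6% in B2B, beside 15.6% and 16.3% of B2B-only regions. Away from starts the A549-only share was 29.2% in A549 and 4.26% in B2B. These overlaps are with the JunD region itself. Counted within 1 kb of a start, H3K4me3 was present in both lines at 93.2% of genes with promoter JunD in A549 only.

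Acetylation of H3K27, a mark of active promoters and enhancers, Med1, a subunit of the Mediator complex, and RNA polymerase II were compared on chromosomes 1 to 12, where all lists are complete, over 4423 A549-only, 1341 shared and 3488 B2B-only regions. H3K27ac of A549 overlapped 61.6%, 26.0% and 3.41% of them, and H3K27ac of B2B 47.9%, 16.3% and 5.96%. Med1 overlapped 70.2%, 55.7% and 8.14% in A549, and 53.1%, 40.1% and 23.2% in B2B. Polymerase II overlapped 80.6%, 71.4% and 17.5% in A549, and 43.4%, 49.4% and 38.7% in B2B. Each class against its own line, the differences of A549-only minus B2B-only were 55.6 points (53.9 to 57.2) for H3K27ac, 47.1 (45.1 to 49.0) for Med1 and 41.9 (39.9 to 43.9) for polymerase II. Near starts, H3K27ac, Med1 and polymerase II overlapped 91.2%, 92.3% and 96.5% of A549-only regions in A549, and 79.8%, 86.2% and 73.3% in B2B. Of A549-only regions away from starts 63.6% overlapped polymerase II and 46.6% Med1 in A549, and of B2B-only regions away from starts 37.5% and 22.3% did in B2B. Shared distal regions overlapped polymerase II at 69.3% in A549 and 47.9% in B2B.

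The lists of these marks differ in background between the lines. Near starts, the local background of peaks relative to the lowest of their list was 1.44 for H3K4me3, 1.87 for H3K27ac and 1.498 for polymerase II in A549, but 13.99, 15.96 and 15.4 in B2B, whereas Med1 had 1.61 in both. Median fold enrichment of H3K4me3 peaks was 12.8 in A549 and 3.42 in B2B. The part of these backgrounds in the mark contrasts was not tested.

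**Figure D4:**
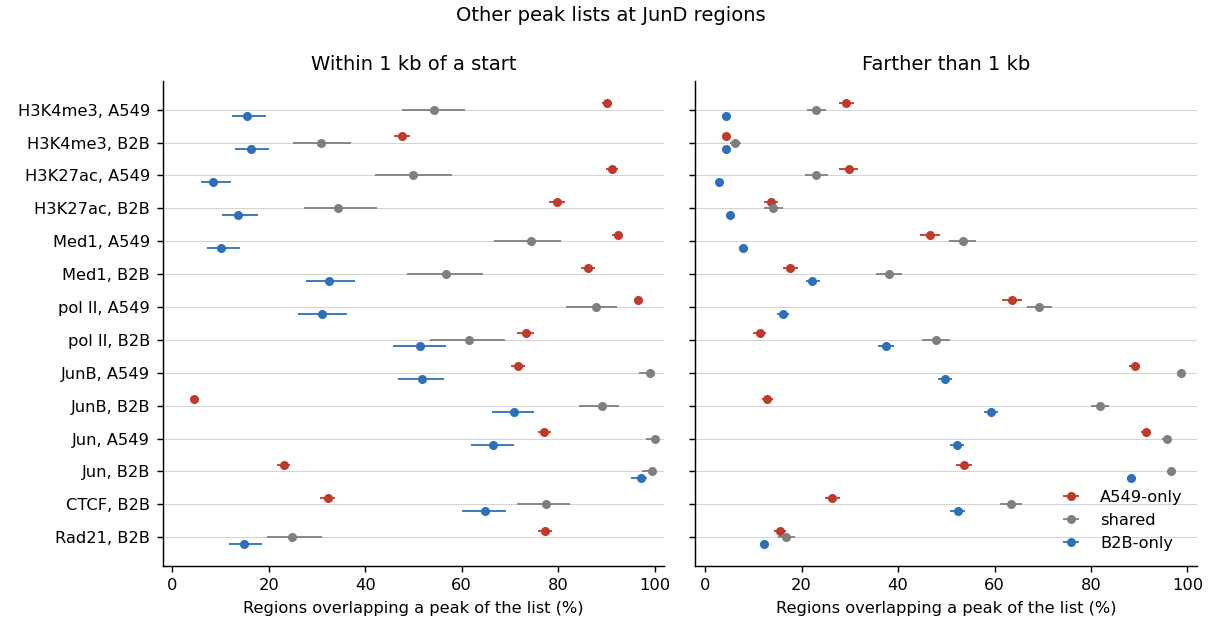
Share of JunD regions (%, horizontal axis) that overlapped a peak of each mark in A549 and B2B, for A549-only, shared and B2B-only regions within 1 kb of a start (left) and farther away (right); dots are shares and lines 95% Wilson intervals. Near starts, A549-only regions reach 90.1% for A549 H3K4me3 and 91.2% for A549 H3K27ac, and B2B-only regions stay at 15.6% and 8.54%. For the same marks of B2B, A549-only regions reach 47.6% and 79.8%, and B2B-only regions 16.3% and 13.6%.

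Nearly all JunD regions held another Jun protein in the line where they were called. JunB or Jun of the same line overlapped 89.5% of A549-only and 89.5% of B2B-only regions, a difference of −0.00316 points (−1.12 to 1.1). This near equality is a balance of −12.4 points near starts and 6.04 points away from them, and under other settings it ran from −5.91 points with peaks of high background left out to 17.9 points with the bins without a start kept. JunB, with or without Jun, overlapped 79.9% of A549-only and 98.8% of shared regions in A549, and 60.3% of B2B-only and 82.8% of shared regions in B2B. For Jun the shares were 83.9% and 96.3% in A549, and 89.1% and 97.0% in B2B. Jun without JunB occurred at 9.57% of A549-only and 29.2% of B2B-only regions.

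The other line often held JunB or Jun where it had no JunD call, and more often for B2B-only regions. B2B JunB or Jun overlapped 37.6% of A549-only regions, and A549 JunB or Jun overlapped 63.2% of B2B-only regions, a difference of −25.5 points (−27.3 to −23.8). Near starts the shares were 23.1% and 70.1%, and away from starts 53.8% and 62.5%. The split was uneven between the relatives. In A549-only regions B2B JunB was called at 8.44% and B2B Jun at 37.6%, and in B2B-only regions A549 JunB was called at 49.9% and A549 Jun at 53.5%. The AP-1 motif was present in 53.0% of A549-only regions with a Jun relative in B2B and 15.0% of those without, and in 55.4% and 39.8% of B2B-only regions with and without one in A549. Jun peaks over the regions differed in strength in the same order. The median fold enrichment of overlapping Jun peaks in A549 was 20.7 at A549-only, 35.3 at shared and 12.6 at B2B-only regions, and in B2B 9.24, 29.0 and 25.8.

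JunD calls with neither JunB nor Jun in the same line were 730 A549-only regions and 509 B2B-only regions, 10.5% of each class. They almost lacked the AP-1 element. It was present in 2 of the 730 A549-only regions (0.274%) against 32.7% of those with a relative, and in 10 of the 509 B2B-only regions (1.96%) against 55.2%. Of the 509, 220 lay in 3 bins of 1 Mb on chromosomes Y, 20 and 13. Outside these bins 289 of 4570 B2B-only regions had JunD alone (6.32%), and 4 of them held AP-1. The median background of B2B-only regions with JunD alone was 10.1 reads, against 2.23 reads with JunB or Jun, and its part in the result was not tested. In A549 the 3 densest bins held 14 of the 730, and the medians were 2.58 and 2.72 reads.

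CTCF and Rad21, a cohesin subunit, were set beside JunD in B2B. CTCF peaks overlapped 29.4% of A549-only, 65.1% of shared and 53.4% of B2B-only regions, whereas Rad21 peaks overlapped 48.1%, 17.7% and 12.5%. The local background of peaks, relative to the lowest of their list, was 5.46 near starts and 1.32 away for CTCF. For Rad21 it was 20.1 and 1.95, and the part of background and of distance to a start in these shares was not tested. Of the 61225 CTCF peaks, 24.8% held the core of the CTCF element, 5.51% held AP-1 and 36.3% overlapped Rad21. The 2592 CTCF peaks over B2B-only JunD regions held the CTCF core in 3.82% and AP-1 in 28.2%, and 517 of them overlapped Rad21. The 1220 over shared regions held the core in 5.25% and AP-1 in 38.1%, and 287 overlapped Rad21. These peaks were not weak within the CTCF list, with median fold enrichments of 8.47 and 8.36 against 8.86 for all. The 2048 CTCF peaks over A549-only regions held the core in 22.5% and AP-1 in 12.5%, and 1298 of them overlapped Rad21. Near starts 961 of 1182 of these peaks overlapped Rad21, and away from starts 337 of 866 did. The CTCF peaks over B2B JunD regions held letters of AP-1 more often than letters of the CTCF core. They were picked by overlap with JunD regions, which often hold AP-1, so their AP-1 share is set in part by that choice.

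Promoter JunD was far more common in A549 at the level of genes. Of 20033 protein-coding genes, 3142 (15.7%) had a JunD summit within 1 kb of a start in A549 and 334 (1.67%) in B2B. In A549 only there were 2972 genes (14.8%), in both lines 170 (0.849%) and in B2B only 164 (0.819%). Distal JunD, assigned to the nearest protein-coding start within 50 kb, was nearly equal, with 2244 genes (11.2%) in A549 and 2356 (11.8%) in B2B. Of these, 1157 genes (5.78%) had it in A549 only, 1087 (5.43%) in both and 1269 (6.33%) in B2B only.

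Genes with promoter JunD in either line mostly had H3K4me3 in both lines. Over all genes H3K4me3 lay within 1 kb of a start at 72% in A549 and 61.5% in B2B. It marked the start in both lines at 2770 of the 2972 genes with promoter JunD in A549 only (93.2%), at 90% of those with it in both and at 81.1% of those with it in B2B only, against 53.2% of genes with it in neither line. Of the 11959 genes marked in both lines, 24.4% had promoter JunD in A549 and 2.39% in B2B, with 23.2% in A549 only, 1.28% in both and 1.11% in B2B only. At the A549-only genes, JunB was near the start in 78.5% in A549 and 5.11% in B2B, and Jun in 84.5% and 33.7%. The whole JunB lists held 26217 peaks in A549 and 8363 in B2B, and the Jun lists 35506 and 44945, so the JunB shares of B2B come from a much shorter list.

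**Figure D5:**
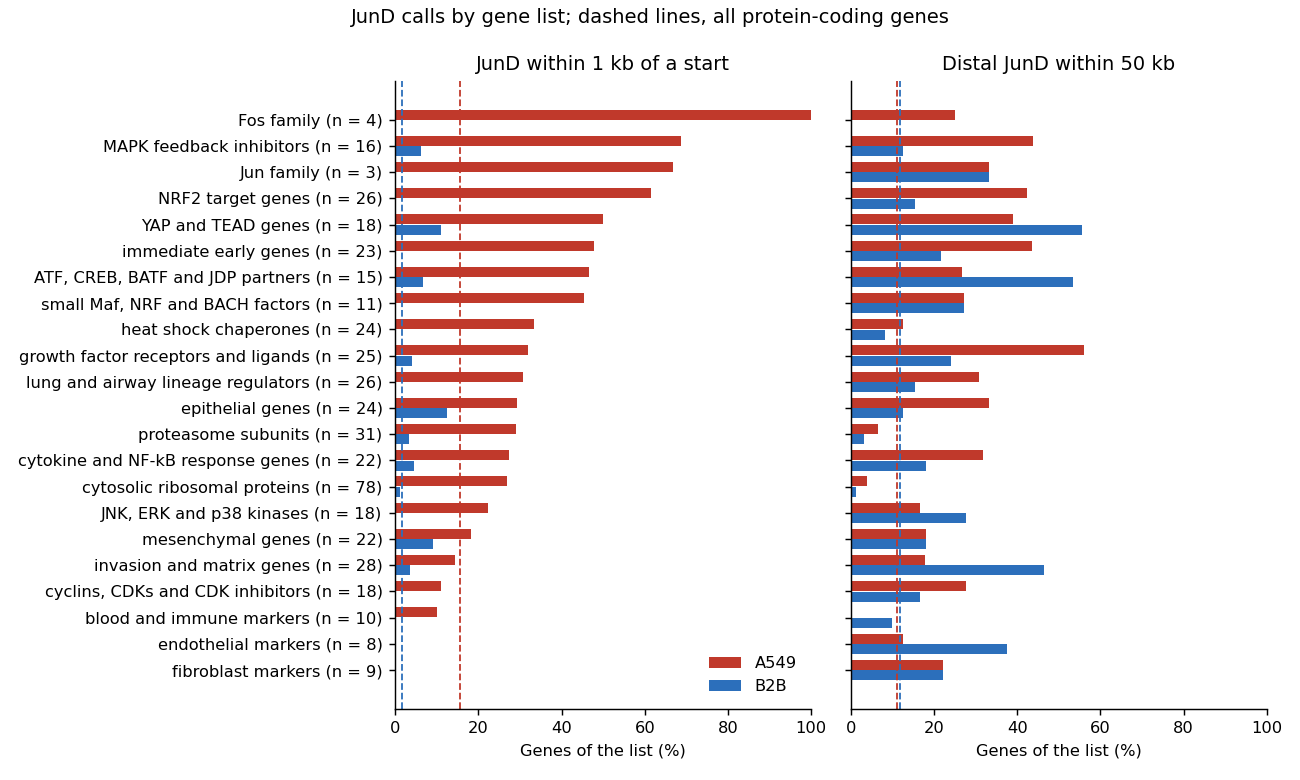
Percent of the genes of each list with promoter JunD (within 1 kb of a start) and distal JunD (nearest start within 50 kb) in A549 and B2B; bars are percentages of the list and dashed lines those of all protein-coding genes (15.7% and 1.67% for promoters, 11.2% and 11.8% for distal). For promoters in A549, 17 of the 22 lists stand above the dashed line, from 18.2% of mesenchymal genes to 4 of 4 Fos genes, and in B2B 9 do.

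Of the genes of AP-1 itself, all 4 Fos genes and 2 of 3 Jun genes carried promoter JunD in A549. In B2B 0 did, which for so few genes is near the 1.67% of all genes. The Fos genes had fold enrichments of 9.51 at FOSL2, 9.20 at FOSL1, 4.95 at FOS and 4.57 at FOSB. Of 3 Jun genes, JUND had 9.49 and JUN 7.83. Of 11 small Maf and related genes, whose proteins pair with NRF2 or compete with it, 5 had promoter JunD in A549 and 0 in B2B, with 17.4 at MAFK, 8.41 at BACH1, 7.17 at MAFF and 7.13 at NFE2L2, which encodes NRF2. Of 15 ATF and CREB genes, 7 had it in A549 and 1 in B2B. CREB5 was called in both, at 8.11 in A549 and 5.83 in B2B, and ATF3, the stress-induced member, had 7.16, ATF6 5.07 and CREB1 5.05 in A549 only. The background for these and the following counts is the 15.7% of all protein-coding genes in A549 and 1.67% in B2B. Among genes with H3K4me3 in both lines it is 24.4% and 2.39%. The mark was at all Jun and Fos genes, 10 of 11 small Maf and related genes and 13 of 15 ATF and CREB genes in each line. Some of the following lists carried it less often, as at 11 of 24 epithelial and 17 of 26 lung lineage genes in B2B. In A549 17 of the 22 lists exceeded 15.7%, and the lists are short. For distal JunD the shares of all genes were 11.2% in A549 and 11.8% in B2B, and 19 and 17 of the 22 lists exceeded them.

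Pathways that feed AP-1, or that it is known to serve, gave the following counts. Of 16 feedback inhibitors of MAPK signalling 11 had promoter JunD in A549 and 1 in B2B. SPRED2, an inhibitor of the RAS pathway, was called in both lines at 13.5 and 15.2, and the phosphatase genes DUSP8, DUSP16 and DUSP1 in A549 at 12.5, 10.6 and 8.12. Of 23 immediate early genes 11 were called in A549 and 0 in B2B, led by KLF6 (11.6), KLF10 (10.4), KLF4 (9.45) and NR4A2 (8.41), which encode transcription factors. Of 18 kinases of the JNK, ERK and p38 cascades 4 were called in A549 (22.2%, near the 24.4% of genes marked in both lines), MAP2K3 at 15.8, MAP3K1 at 6.67, MAPK8 (JNK1) at 5.80 and MAP2K1 (MEK1) at 5.11, and 0 in B2B.

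NRF2 target genes, which serve the oxidative stress response, had promoter JunD at 16 of 26 members in A549 and 0 in B2B. SRXN1, a sulfiredoxin, had a fold enrichment of 11, the export pump ABCC3 9.59, OSGIN1 8.12 and GCLM, a subunit of the enzyme of glutathione synthesis, 7.52. Distal JunD was assigned to 11 members in A549 (42.3%, beside 11.2% of all genes) and 4 in B2B (15.4%, beside 11.8%). The thioredoxin reductase gene TXNRD1 had 6 distal regions in A549 and 1 in B2B. Heat shock and chaperone genes had promoter JunD at 8 of 24 members in A549 and 0 in B2B, with 15.4 at the co-chaperone gene BAG3, 7.27 at HSP90AA1 and 6.93 at HSPD1 and HSPE1, a pair that shares a promoter.

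Genes of YAP, TEAD and their regulators and targets in the Hippo pathway had promoter JunD at 9 of 18 members in A549 and 2 in B2B. The target gene ANKRD1 had 10.8 in A549 and 16.3 in B2B, and in A549 only the factor gene TEAD1 had 12.6, the receptor kinase gene AXL 9.45 and tissue factor gene F3 8.42. Their distal JunD leaned the other way, with 7 members in A549 (38.9%) and 10 in B2B (55.6%), beside 11.2% and 11.8% of all genes. Of 25 genes of growth factors and receptors 8 had promoter JunD in A549 and 1 in B2B. IGF1R was called in both lines at 12.9 and 12.5, and the receptor genes MET, ERBB2 and FGFR1 in A549 at 8.58, 8.48 and 6.42. Distal JunD was assigned to 14 of the 25 in A549 (56%) and 6 in B2B (24%). EGFR went the other way, with 4 distal regions in A549 and 7 in B2B.

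Of 24 epithelial genes 7 (29.2%) had promoter JunD in A549 and 3 in B2B, with the keratin gene KRT7 at 9.95 in A549 only. KRT8 and KRT18, whose genes are neighbours, were called in both lines with the same values, at 8.97 in A549 and 5.04 in B2B. CDH1, which encodes E-cadherin, was called in B2B only, at 5.99. Of 22 mesenchymal genes 4 were called in A549 (18.2%, near the 15.7% of all genes) and 2 in B2B, VIM (vimentin) at 16 and COL6A1 at 6.95 in A549 only, TGFBI at 11.1 and 7.91 in both and SPARC at 5.15 in B2B only. Of 26 regulators of lung and airway lineages 8 (30.8%) were called in A549 and 0 in B2B, led by FOXP1 (9.81), CEBPD (6.58), FOXA2 (5.37) and ID2 (5.22).

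Genes of invasion and matrix turnover had distal JunD at 13 of 28 members in B2B (46.4%, beside 11.8% of all genes) and at 5 in A549 (17.9%, beside 11.2%). Promoter JunD was called at 4 in A549 (14.3%, near the 15.7% of all genes) and at 1 in B2B. In A549 the integrin genes ITGB1, ITGB4 and ITGA3 had promoter fold enrichments of 13.3, 5.42 and 4.17, and the matrix gene TNC had 7.77 in B2B only. Distal regions in B2B only were assigned to the laminin gene LAMA3, the protease inhibitor gene SERPINE2, TNC, the protease genes PLAU, MMP2, MMP3, MMP10 and MMP13, and the hyaluronan receptor gene CD44. Of these genes, MMP2, MMP3, MMP10 and MMP13 had no H3K4me3 within 1 kb of a start in B2B, and the others had it. ITGA6 and ITGA3 had distal JunD in both lines. The metalloproteinase genes MMP3, MMP10 and MMP13 are neighbours in a cluster, so their regions are not independent.

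Further lists hold genes of inflammation, housekeeping, division and other cell types. Of 22 cytokine and NF-kB genes 6 had promoter JunD in A549 and 1 in B2B, with 13.4 at TNFAIP3, an inhibitor of NF-kB, 7.31 at CXCL8 and at CXCL2 and 6.14 at NFKBIA. Proteasome and ribosomal protein genes, all marked by H3K4me3 in both lines, were called at close to the 24.4% of such genes in A549. Of 31 proteasome genes 9 were called in A549 (29.0%) and 1 in B2B, with 6.02 at PSMD14, 5.90 at PSMA7 and 5.58 at PSMD12 in A549 and 12.1 at an internal start of PSMD1 in B2B. Of 78 ribosomal protein genes 21 were called in A549 (26.9%) and 1 in B2B, led by RPS29 (15.8), RPL6 (9.38) and RPS20 (9.04). Of 18 cyclin and cell cycle kinase genes only CCNE1 (5.98) and CDK1 (4.69) were called, in A549. Of 10 blood and immune genes CD14 was called in A549 (4.91), and of 8 endothelial and 9 fibroblast genes 0 were called in either line.

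Some genes gathered many distal JunD regions, and those named here were chosen after their values were seen. In A549 1671 genes had 1 distal region, 371 had 2 and 202 had 3 or more, and in B2B 1695, 431 and 230 did. PDE4D, a phosphodiesterase that breaks down cyclic AMP, had 13 in A549 and 4 in B2B. KYNU, an enzyme of tryptophan breakdown, and TLE1, a corepressor, had 6 each in A549 and 0 in B2B. ARHGAP26 had 11 in B2B and 3 in A549, the growth factor gene PDGFC 9 and 1, and PALLD, which encodes the actin-binding protein palladin, 7 and 0.

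The strongest A549-only regions at promoters were a mixed group. RUNDC3B had a fold enrichment of 26.3 (93 reads), in an intron at chr7:87626111-87626816, and KPNA7, an importin gene, 22.6 (82 reads). Neither held a motif of the set, and the window at RUNDC3B is a tandem repeat, overlapped only by Jun in A549 and CTCF in B2B. TRIB1, a pseudokinase gene, had 25 (125 reads) at chr8:125429644-125430564, TAGLN2, an actin-binding protein gene, 17.8 (66 reads) at chr1:159924450-159924873, and MAFK 17.4 (76 reads) at chr7:1537168-1537501. These 3 held AP-1 elements, overlapped H3K4me3, H3K27ac, Med1 and polymerase II in A549, and overlapped JunB and Jun in B2B, where no JunD was called.

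Away from starts, the strongest A549-only region lay in an intron of TCF7L2, a Wnt pathway transcription factor gene, at chr10:113093513-113093819, with 27.7 (98 reads) and 31.9 kb from the nearest protein-coding start. The next were nearest HS3ST3A1, a heparan sulfate enzyme gene (24.9, 74 reads), PLEKHG6 (24.4, 79 reads, chr12:6278565-6279027), GPR141 (23.2, 76 reads, chr7:37666488-37666711) and ERICH1 (21.5, 78 reads, chr8:629217-631290). The region near GPR141 lacked AP-1, and the others held it. In B2B, Jun overlapped 4 of these 5 and JunB only that near PLEKHG6. The region named by HS3ST3A1 lay 135 kb from the nearest protein-coding start, so this name gives position only.

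Among shared promoters RAPGEF4, an exchange factor gene activated by cyclic AMP, had 18.7 in A549 (66 reads) and 17.7 in B2B (50 reads) at chr2:173048707-173049220. NRP1, a receptor gene for semaphorins and VEGF, had 15.5 and 15.99 at chr10:33264239-33264542, CLIP1, a microtubule protein gene, 18.3 and 13.0, SPRED2 13.5 and 15.2, and GSN (gelsolin) 16.8 and 11.9. Of shared distal regions, that near DBNDD1 had 26.6 (143 reads) and 24.0 (82 reads) at chr16:89994645-89996260, HPS1 22.5 and 21.2 at chr10:98460834-98461149, LDLRAD3 21.3 and 20.4, RND3 20.3 and 21.6, and PCCA 18.3 and 31.3. AP-1 was present in all 10 of these shared regions. The nearest protein-coding start was 338 kb away for RND3, so this name gives position only.

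The 5 strongest B2B-only promoter regions had lower fold enrichments than the 5 of A549, although the medians of the classes near a start were 5.73 and 5.19. SYTL2, a gene of vesicle traffic, had 15.3 (43 reads) in a coding exon at chr11:85725979-85726270, SAMD12 12.7, PSMD1 12.1, EYA1 11.5 and TBC1D1, a gene of glucose transport, 10.8 (30 reads) at chr4:38119789-38119976. Of these 5, 3 held AP-1 and only EYA1 overlapped H3K4me3 in B2B. The strongest distal regions were nearest SLC8A1, a sodium and calcium exchanger gene (19.5, 55 reads, chr2:40434927-40435217), EBF1 (17.4, 49 reads, chr5:158382539-158382815), RIOK2 (16.8), TGFB2, the TGF-β2 ligand gene (16.5, 56 reads, chr1:218377350-218377640), and FRMD6, an upstream Hippo gene (16.2). AP-1 was present in all 5 and RUNX in those near RIOK2 and TGFB2. The nearest protein-coding start was 325 kb away for EBF1 and 655 kb for RIOK2, so these names give position only.

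Line-only regions were unevenly spread over chromosomes. A549-only regions made up 90.6% of the line-only regions on chromosome 19, 36.1% on chromosome 13 and 6.15% on chromosome Y. The bins of 1 Mb with most A549-only regions were chromosome 21 at 8 to 9 Mb (53 regions), chromosome 5 at 181 to 182 Mb (41) and chromosome 11 at 65 to 66 Mb (28). The last holds FOSL1 and FRMD8, and 26 of its regions lay near a start. The bins with most B2B-only regions were chromosome Y at 56 to 57 Mb (158), chromosome 20 at 28 to 29 Mb (88) and chromosome 13 at 18 to 19 Mb (37). AP-1 was present in 5.06% of those on Y and in 0 of those in the bins of chromosomes 20 and 13, against 49.6% of all B2B-only regions. In the A549-only bins of chromosomes 21, 5 and 11 it was present in 9.43%, 4.88% and 17.9%, against 29.3% of all A549-only regions. The median background was 35.2 reads in the Y bin and 7.36 reads in the chromosome 21 bin, against 2.35 and 2.73 over all B2B and A549 JunD peaks.

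In A549-only regions JunD lay near starts more often than JunB and Jun did. Processed by the same rule, 52.7% of A549-only JunD regions lay near a start, against 31.8% of A549-only JunB regions (a difference of 20.9 points, 19.6 to 22.3) and 32.4% of A549-only Jun regions (20.3 points, 19.0 to 21.7). B2B-only regions near a start made up 8.61% for JunD, 9.51% for JunB and 9.36% for Jun. AP-1 was less frequent in A549-only regions of JunD than of JunB (a difference of −15.8 points) and than of Jun (−3.11 points). In B2B-only regions it was more frequent, with 49.6% for JunD, 40.2% for JunB and 31.9% for Jun, differences of 9.41 and 17.8 points. Fewer JunD regions were shared, 13.7% against 17.3% for JunB and 26.3% for Jun. The JunB and Jun lists were longer, with 34580 and 80451 peaks in the 2 lines together against 15616, and the part of list length in these differences was not tested.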

How the data were processed

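JunD ChIP-seq (chromatin crosslinked with formaldehyde, JunD antibody of Thermo Fisher Scientific) was done in A549 and B2B cells with 2 replicates each. Per the study's methods, the authors used Bowtie2 2.4.4 (hg38) to align reads and custom code to drop duplicates. They pooled the replicates, brought them to CPM by SAMtools 1.13, and took peaks from MACS2 2.2.7.1. The options and the control are not given in the sources used here. The deposited lists give, for each peak, the fold enrichment at the summit as a ratio to local background, and −log10 p and −log10 q. The deposited columns of position give start, end and summit in bp. Read totals of the libraries were not used here.

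Peaks were kept by summit in bins of 1 Mb with a start in GENCODE release 44, and regions were merged at 1 bp of overlap. Reads and background at a summit were solved from the fold enrichment and its p-value under a Poisson model. Letters of 14 motifs were searched on either strand within 50 bp of the summit, with windows 2 kb away and at 20033 protein-coding starts as background. The CTCF core was added after the data were seen. Shares have Wilson and differences Newcombe 95% intervals. The lists of H3K27ac and polymerase II in A549 and of Med1 end early, so these use chromosomes 1 to 12.

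Named regions were the 5 promoter and 5 distal regions of each class with the highest fold enrichment (shared: mean percentile) among those with JunB or Jun in the same line. Of the 22 gene lists (459 symbols, 459 matched), members with promoter JunD were named when there were 4 or fewer, otherwise the 4 highest. The 3 densest bins per class were also named. The sequences are of the first 2 regions of each class and kind, leaving out chromosome 8 and untranslated regions. Some of these, and some genes that the rule names, are not reported here. Members and lists were chosen with earlier results of these data known. Scripts were tested on simulated data. Tools were Python 3.11.15, NumPy 2.4.6, pandas 2.3.3, SciPy 1.17.1, pysam 0.24.0, Matplotlib 3.10.9, bedtools 2.31.1 and samtools 1.23.1.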

Additional observations from a re-analysis of the deposited data

Results flagged for a closer look

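JunD peaks were also called outside the regions compared, and all but the mitochondrial count of A549 were above the 3 counts that a count of 0 allows. On unplaced or alternate sequences there were 212 JunD peaks in A549 and 158 in B2B. On the mitochondrial sequence there were 11 in B2B and 1 in A549. In bins of 1 Mb without an annotated start there were 768 in A549 and 1852 in B2B, 7.97% and 21.5% of the peaks on chromosomes 1 to 22, X and Y. None of the peaks left out in these bins held an AP-1 element within 50 bp of the summit (0 in each line), against 37.1% of A549 and 54.6% of B2B peaks that were kept. Their median background was 5.15 reads in A549 and 3.91 in B2B.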

How the results depend on the processing

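Of 153 values under 13 alternatives, 138 were counted as the same. For a count this means a like size. For a difference it means that the whole interval kept the same sign, whatever its size. The A549-only excess near starts stayed between 38.7 and 44.7 points, the CRE difference between 1.40 and 3.55, H3K4me3 between 51.3 and 56.3, H3K27ac between 50.9 and 56.8, Med1 between 43.5 and 49.2 and polymerase II between 39.7 and 42.9 points. The AP-1 difference ran from −22.1 (motif within 100 bp of the summit) to −10.2 points (all bins kept). The near equality of JunB or Jun in the same line, at −0.00316 points, did not hold its sign. It was 17.9 with all bins kept, 1.54 with peaks of −log10 q of at least 5, 0.112 with 50% reciprocal overlap, 4.25 with lists of equal length and 0.217 with marks over the 200 bp around the summit. It was −1.44 when line-only regions had no peak of the other line within 1 kb, −5.08 on chromosomes 1 to 12, −5.91 with peaks of high background left out and −2.38 without chromosome Y. The last 2 alternatives were chosen after seeing the data, and the cause of these shifts was not tested. Chromosomes 1 to 12 alone hold fewer regions and genes: 4423 A549-only regions, 1875 genes with promoter JunD in A549 only and 109 in both, and 711 with distal JunD in A549 only. With starts within 3 kb, 323 genes had promoter JunD in both lines and 311 in B2B only. No paired analysis was possible because each line had 1 pooled list, and for the same reason no replicate could be left out. With a median of 21 or 22 reads at a summit, a region just under the threshold in the other line counts as line-only.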
